A study of Mus musculus with 10 samples.

Results

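Homologous recombination, Fanconi anaemia and DNA damage response genes were followed in the prostates of TRAMP mice given nicotine or tap water. The set held 36 named mouse genes, each taken by the symbol of its array probe set. Where a gene had several probe sets with a single symbol, the one with the highest mean over the 10 arrays was used. Values were found for 35 of the 36, and all 35 passed the filter on low values, among 14953 genes tested. Xrcc2 was not analysed here. The members fell into 9 genes of the BRCA complexes and the recombinase partners, 10 Fanconi anaemia genes, 5 helicase, nuclease and scaffold genes, 2 mismatch repair genes and 9 genes of damage sensing and the checkpoint.

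Homologous recombination mends a broken chromosome by copying the intact sister chromatid, and is therefore used mainly in cells that have replicated their DNA. BRCA1 with BARD1 helps to prepare the broken ends, PALB2 carries BRCA2 to them, and BRCA2 is needed for the step that finds and invades the matching sequence. The Fanconi anaemia core complex attaches ubiquitin to FANCD2 and FANCI at DNA crosslinks, and the kinases ATM and ATR report damage to the checkpoint kinases. Many genes of these pathways are transcribed in cycling cells under E2F factors, and inherited loss of several of them is known to predispose to cancer, prostate cancer included for BRCA2.

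The 5 nicotine mice drank 250 µg/ml of nicotine, given as the tartrate salt in tap water, and the 5 water mice drank tap water alone, both from an age of 8 to 9 weeks. All 10 were male TRAMP mice, a prostate cancer model in which viral T antigens are driven in prostate epithelium by the promoter of Pbsn, the gene of an androgen-dependent secretory protein. Every animal, controls included, therefore carries the transgene, and T antigen itself binds the retinoblastoma and p53 proteins. The sources used here do not give the age at collection. Total RNA of each prostate was hybridised to its own single-colour Affymetrix whole-transcript array, and all values below are deposited log2 values, in which 1 unit is a doubling. Levels are compared between mice and not between genes.

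The arrays of nicotine mice 1 and 3 differed from the rest. Chga, a marker of neuroendocrine cells, was at 11.74 and 11.31 log2 units in nicotine mice 1 and 3, against 7.35 to 7.52 in nicotine mice 2, 4 and 5 and 7.07 to 7.73 in the water mice. The mean of 10 measured neuroendocrine markers was 9.41 and 10.15 in nicotine mice 1 and 3, against 7.04 to 7.45 in the other nicotine mice and 6.72 to 7.52 in the water mice. Of these 10 markers, 8 lay at least 1 log2 unit above the water mean in nicotine mouse 1 and 9 in nicotine mouse 3. The exceptions were Scg2 (6.77) and Stmn2 (7.36) in nicotine mouse 1 and Pcsk1 (6.20) in nicotine mouse 3. The mean of 9 luminal markers was 10.9 in nicotine mouse 1 and 6.66 in nicotine mouse 3. It was 11.38 to 11.61 in the other nicotine mice and 11.39 to 11.63 in the water mice. The 9 were Pbsn, Msmb, Sbp, Tgm4, Defb50, Fkbp5, Krt8, Krt18 and Folh1, the last of which did not pass the filter on low values. Pbsn was at 9.17 and 5.08 in nicotine mice 1 and 3 and at 10.86 to 12.20 in the other 8 mice. The prostate label was thus matched by these luminal markers in 8 mice, less so in nicotine mouse 1, and not in nicotine mouse 3. The mean of 9 skeletal muscle markers was 10.26 in nicotine mouse 1 and at most 7.39 elsewhere. The mean of 9 seminal vesicle markers ran from 5.96 to 12.57 in nicotine mice and from 7.28 to 13.17 in water mice. It was 12.57 in nicotine mouse 5 and 12.11, 13.17 and 12.98 in water mice 3, 4 and 5, against at most 8.63 in the other mice. The 8 mice with luminal markers were therefore not alike in seminal vesicle markers. Fibroblast markers were at 8.40 to 9.44 in nicotine mice, against 9.74 to 10.13 in water mice, and macrophage markers at 7.86 to 8.31 in nicotine mice, against 8.26 to 9.03 in water mice. Smooth muscle markers were at 8.22 in nicotine mouse 3 and 10.71 to 11.57 in the other nicotine mice, against 11.18 to 11.45 in water mice. Basal epithelial markers were at 6.87 to 7.91 in nicotine mice, against 7.39 to 7.66 in water mice, and lymphocyte markers at 6.36 to 6.57, against 6.49 to 6.77. The comparisons were therefore made in all 10 mice and again in the 8 mice without nicotine mice 1 and 3, which leaves 3 nicotine against 5 water mice. In bulk tissue, fewer cells of a type and less RNA per cell cannot be told apart.

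Most of the repair genes had a higher mean in the nicotine mice, and the excess was largest in nicotine mouse 3. Over all 10 mice, 29 of the 35 members had a positive log2 difference of nicotine minus water and 6 a negative one. The positive share was 82.9%, against 50.7% of all tested genes. The median difference of the members was 0.23, with a range of -0.33 for Rad50 to 1.04 for Fancd2, beside a median of 0.00 over all tested genes. In limma's moderated test, 0 members and 0 of all genes (0%) had an adjusted p under 0.05, and among the members the lowest was 0.458. At an unadjusted p under 0.05, 10 members were higher (28.6%), against a background of 4.28% of all genes, and 0 were lower, against 5.84%. The 10 were Brca2, Brip1, Clspn, Eme1, Exo1, Fanca, Fancd2, Fanci, Mus81 and Rad54l. This count depended on single animals: it was 1, 14, 10, 11 and 10 without nicotine mice 1 to 5, and 3, 2, 2, 3 and 6 without water mice 1 to 5. The number of all genes at this p, higher and lower together, moved as well, from 1514 with all mice. It was 981, 1839, 1887, 2490 and 2033 without nicotine mice 1 to 5, and 995, 1094, 784, 1029 and 1069 without water mice 1 to 5. Leaving out nicotine mouse 3, which had the largest excess, left the count of higher members at 10. Without nicotine mouse 4, 1 member was lower at this p. With arrays weighted by their fit in limma, which lowers the weight of arrays that stand apart, 4 members (Brca2, Clspn, Exo1 and Rad54l) passed an adjusted p of 0.05 with differences of 0.30 to 0.36, among 1096 genes of 14953. With these weights the median difference of the members was 0.10, and at an unadjusted p under 0.05 there were 14 members higher and 3 lower.

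In 6 members, Blm, Brca2, Clspn, Exo1, Fancd2 and Rad54l, every nicotine mouse lay above every water mouse (17.1%), against 2.02% of all genes. In 0 members did every nicotine mouse lie below every water mouse, against 2.88% of all genes.

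**Figure D1:**
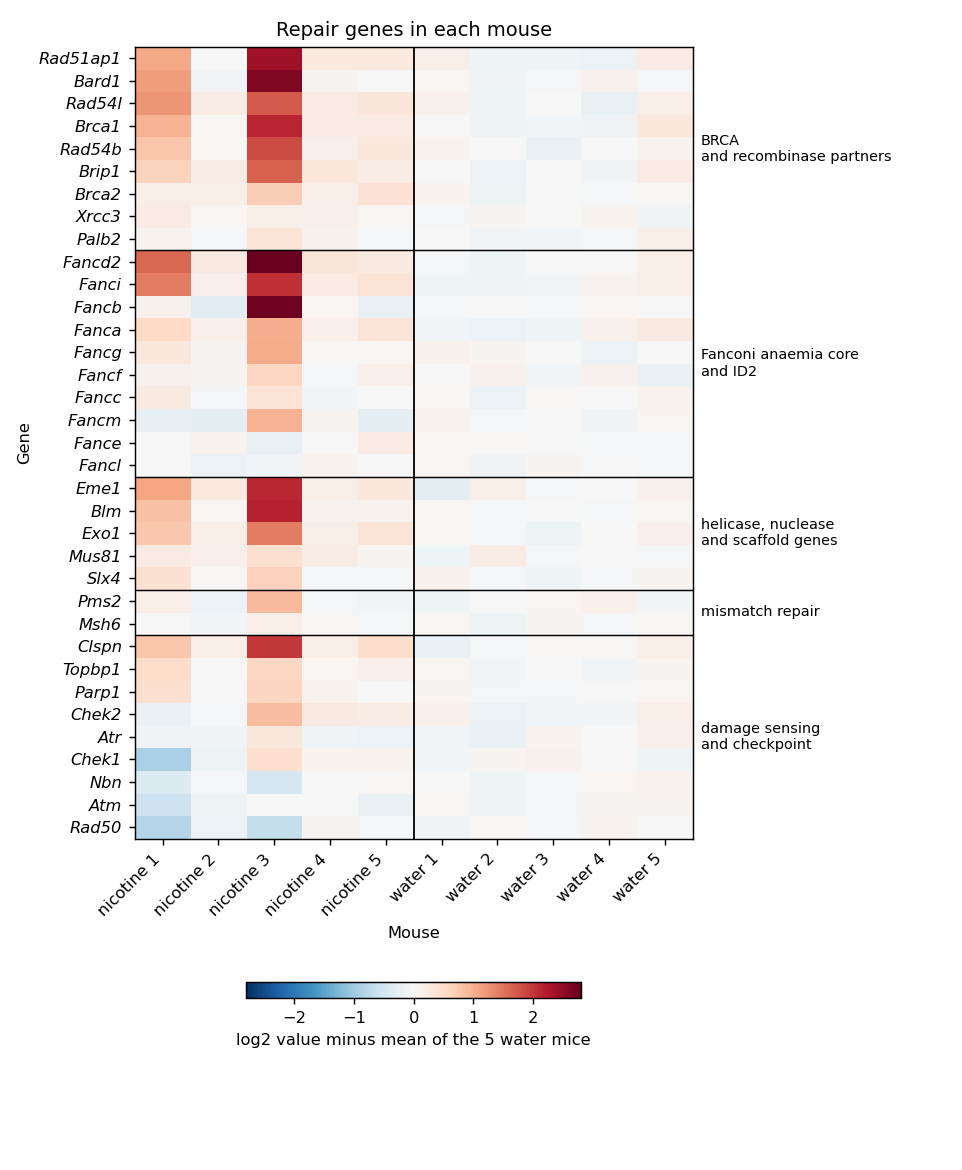
Log2 value of each of the 35 repair genes (rows, grouped by role) in each mouse (columns, 5 nicotine then 5 water), as the difference from the mean of the 5 water mice, on a colour scale from blue (lower) to red (higher). Nicotine mouse 3 is the reddest column, nicotine mouse 1 the next, and Rad50 is blue in both.

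Nicotine mouse 3 was the highest of the 10 mice in 29 of 35 members (82.9%), against 30.2% of all tested genes. The members it did not lead were Xrcc3, Fance, Fancl, Atm, Nbn and Rad50. It lay at least 1 log2 unit above the water mean in 15 members (42.9%), against 10.7% of all genes, and nicotine mouse 1 did so in 6 members (17.1%), against 5.54%. In 21 members nicotine mouse 3 was highest and nicotine mouse 1 next, above all other 8 mice, an order found in 2288 of all 14953 genes. The median deviation of the members from the water mean was 0.25, 0.03, 0.86, 0.10 and 0.09 in nicotine mice 1 to 5, and 0.03, -0.06, -0.02, 0.00 and 0.07 in water mice 1 to 5. The median SD of a member was 0.405 among the 5 nicotine mice and 0.101 among the water mice, whereas it was 0.261 and 0.0969 over all genes. Among water mice, number 5 was the highest in 16 of the 35 members. The share over all tested genes was not counted, so this is not read as a trait of the members.

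A small difference was left in the 8 mice without nicotine mice 1 and 3. The median difference of the members was 0.06, beside 0.01 over all genes, with a range of -0.16 for Fancb to 0.29 for Clspn. Of the members, 25 were positive (71.4%, against 53.5% of all genes) and 10 negative. Again 0 members and 0 of all genes (0%) had an adjusted p under 0.05 in limma, the lowest among the members being 0.131 for Fancd2. At an unadjusted p under 0.05, 8 members were higher (22.9%), against 6.01% of all genes, and 0 lower, against 8.69%. These 8 were Brca2, Brip1, Clspn, Eme1, Exo1, Fancd2, Fanci and Rad54l, all of them among the 10 of the full comparison. Fanca and Mus81 had unadjusted p-values of 0.056 and 0.0939. The count of higher members ranged from 2 to 11 when single mice were left out, with 2 when nicotine mouse 5 was removed. Lower members numbered 3 without nicotine mouse 4 and 1 without water mouse 2. The count over all genes, higher and lower together, ranged from 1482 without nicotine mouse 5 to 2505 without nicotine mouse 4, against 2198 in the 8 mice. Without water mouse 5, 90 genes had an adjusted p under 0.05, Fancd2 among them, and with array weights 1143 genes did, with 7 members. With these weights 15 members were higher and 4 lower at an unadjusted p under 0.05, beside 3921 of all 14953 genes in either direction. The same 6 genes as before had every nicotine mouse above every water mouse, against 4.12% of all genes, and 0 members had every nicotine mouse below, against 6.47%; the first count is fixed in part by the full comparison, since the 8 mice are among the 10.

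**Figure D2:**
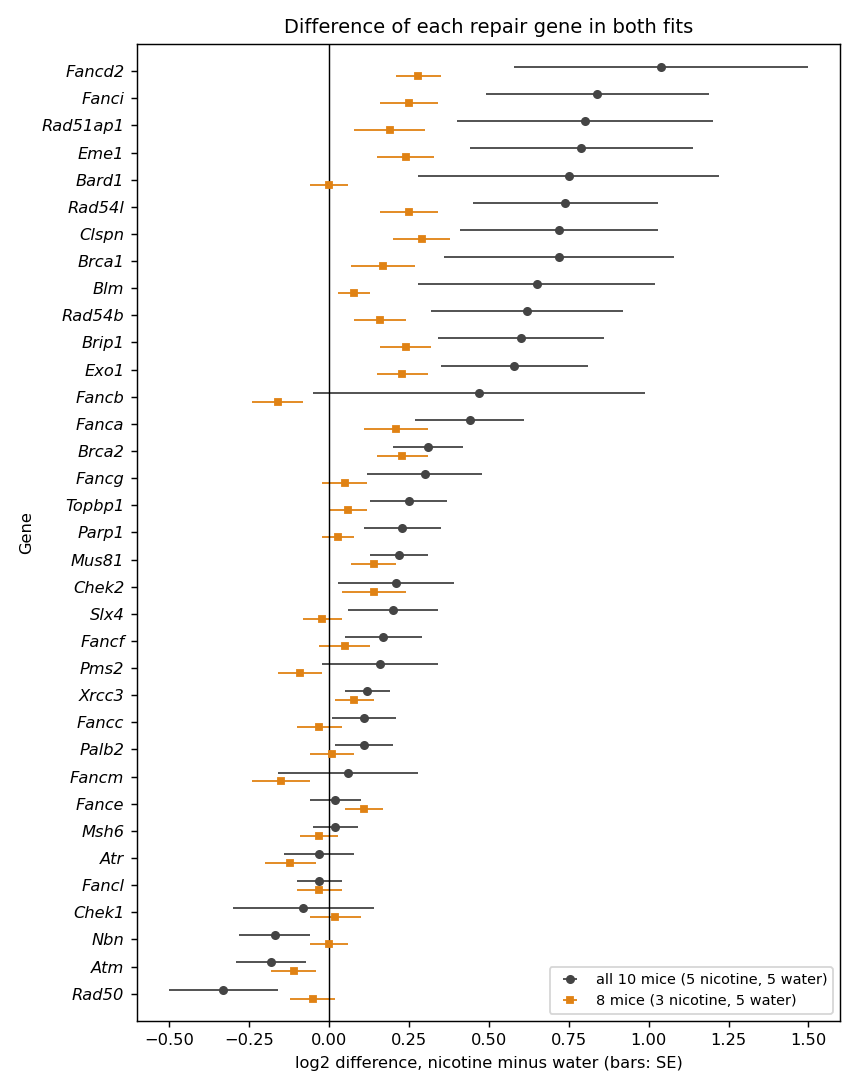
Log2 difference of nicotine minus water for each of the 35 repair genes, with its SE, in all 10 mice (circles) and in the 8 mice without nicotine mice 1 and 3 (squares). Without these mice the differences lie between -0.16 and 0.29, against -0.33 and 1.04 with them.

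Promoter windows were compared because so many of these genes were high in the same mice. RefSeq windows of 300 bases, 250 before and 50 after the annotated start in GRCm38.p6, were given for 30 members in 31 windows; Fancd2, Exo1, Rad50, Nbn and Rad54b had no entry. The letters searched on both strands were 4 E2F-type heptamers, namely TTCCCGC, the form TTCGCGC, the form TTGCCGC and the form TTGGCGC, and separately the pentamer CCAAT. The sequences given here are the windows of 3 members that were higher in both comparisons and hold E2F-type letters (Clspn, Fanci, Brip1), of 1 that was higher and holds only CCAAT (Rad54l), and of 1 with negative differences that holds both (Atm). Each is printed 5′ to 3′ on the gene's own strand, at chr4:126556730-126557029 (plus) for Clspn, chr7:79392088-79392387 (plus) for Fanci, chr11:86201144-86201443 (minus) for Brip1, chr4:116123641-116123940 (minus) for Rad54l and chr9:53536622-53536921 (minus) for Atm, and capitals mark the matched letters or their reverse complement.
Clspn: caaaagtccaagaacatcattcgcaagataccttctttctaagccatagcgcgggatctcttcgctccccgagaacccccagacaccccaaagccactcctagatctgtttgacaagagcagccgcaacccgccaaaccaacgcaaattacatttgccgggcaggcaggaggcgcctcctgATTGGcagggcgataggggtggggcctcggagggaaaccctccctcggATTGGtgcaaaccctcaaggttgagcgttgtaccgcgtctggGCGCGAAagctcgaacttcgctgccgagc
Fanci: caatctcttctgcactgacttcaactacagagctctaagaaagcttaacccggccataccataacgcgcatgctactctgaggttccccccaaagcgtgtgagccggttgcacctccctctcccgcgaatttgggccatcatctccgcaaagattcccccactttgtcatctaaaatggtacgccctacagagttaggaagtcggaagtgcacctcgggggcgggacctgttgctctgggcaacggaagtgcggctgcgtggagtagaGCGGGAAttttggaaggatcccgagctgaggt
Brip1: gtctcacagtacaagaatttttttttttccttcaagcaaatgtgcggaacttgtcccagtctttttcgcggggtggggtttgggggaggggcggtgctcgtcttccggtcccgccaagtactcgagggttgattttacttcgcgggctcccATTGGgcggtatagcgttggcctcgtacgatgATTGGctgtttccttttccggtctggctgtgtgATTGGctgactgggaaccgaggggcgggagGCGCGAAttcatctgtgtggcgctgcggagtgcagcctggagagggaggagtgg
Rad54l: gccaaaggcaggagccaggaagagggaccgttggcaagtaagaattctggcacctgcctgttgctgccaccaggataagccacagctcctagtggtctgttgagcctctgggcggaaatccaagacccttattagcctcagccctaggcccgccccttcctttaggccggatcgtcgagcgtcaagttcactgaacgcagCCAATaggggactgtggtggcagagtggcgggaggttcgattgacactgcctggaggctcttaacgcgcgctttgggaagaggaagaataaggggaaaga
Atm: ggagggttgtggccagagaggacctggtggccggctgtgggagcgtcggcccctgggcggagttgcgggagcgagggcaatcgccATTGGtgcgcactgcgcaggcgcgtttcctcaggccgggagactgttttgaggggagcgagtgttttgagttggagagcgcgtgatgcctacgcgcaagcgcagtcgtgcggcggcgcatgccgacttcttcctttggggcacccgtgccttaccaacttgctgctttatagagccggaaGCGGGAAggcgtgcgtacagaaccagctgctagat
With the first transcribed base as 1 and the base before it as -1, the E2F-type letters stood at 22 to 28 in Clspn, 19 to 25 in Fanci, -4 to 3 in Brip1 and 16 to 22 in Atm. Clspn and Brip1 also held 2 and 3 copies of CCAAT upstream of the start.

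E2F-type letters were found in 18 of the 31 windows of the members (58.1%), against 9.57% of all 32851 windows and 15% of the 14959 windows of tested genes. CCAAT was found in 64.5% of the members' windows, against 37.4% and 36.6%. In the proliferation list the shares were 47.4% and 84.2% of 19 windows. The members' windows had a median GC content of 58.0%, against 52.7% in all windows and 60.0% in those of tested genes. Topbp1 held a pair of overlapping E2F-type matches, and in Fancf an E2F-type match overlapped a CCAAT. In all 10 mice the differences ran from -0.18 to 0.84 in members with E2F-type letters and from -0.03 to 0.79 in members without them. A test between these members was not made. The 18 genes with E2F-type letters had a median difference of 0.30 in all 10 mice and 0.06 in the 8, the 12 without them 0.16 and 0.06, and the 5 with no window 0.58 and 0.16. Fanci, at 0.84, and Atm, at -0.18, both carried TTCCCGC on the opposite strand just inside the transcript, and Rad54l, at 0.74, had none of the 4 heptamers in its window. A match is a description of the letters and not of binding.

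**Figure D3:**
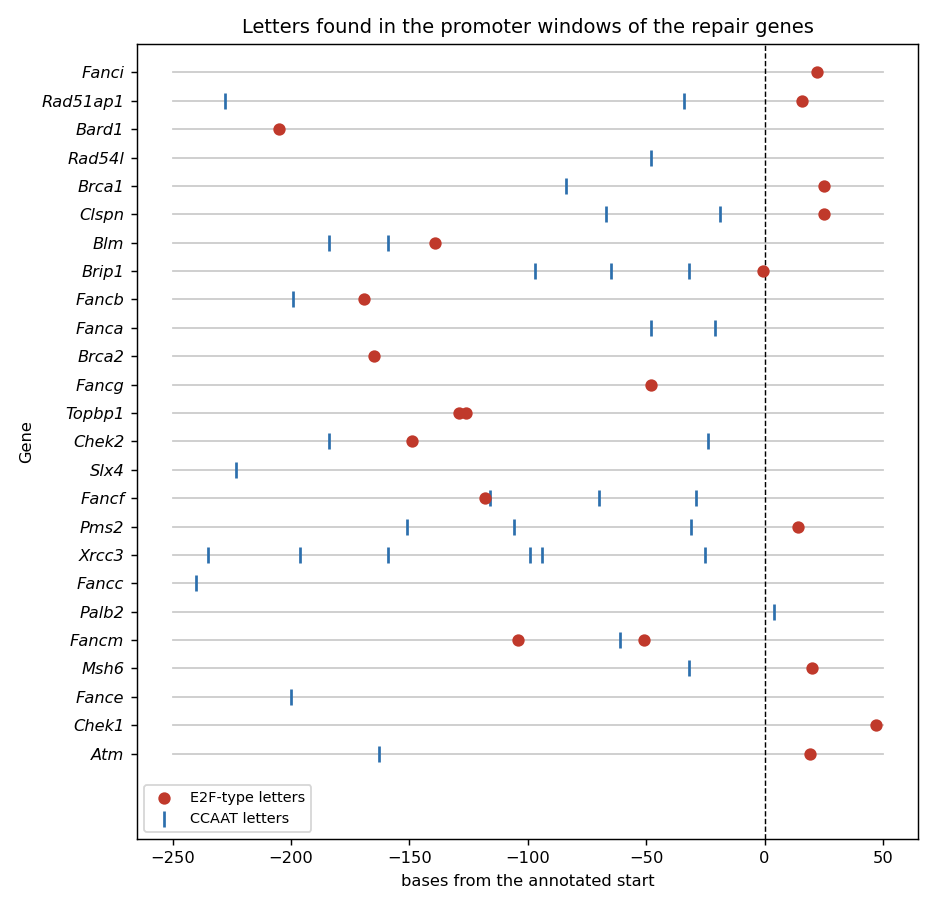
Position of E2F-type letters (circles) and CCAAT letters (ticks) from 250 bases before to 50 after the annotated start, for the 25 repair genes whose window held any, ordered from the highest (top) to the lowest log2 difference of nicotine minus water in all 10 mice. E2F-type letters occur both near the top (Fanci, Rad51ap1) and at the bottom (Chek1, Atm).

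All 9 BRCA genes and recombinase partners had a positive difference in all 10 mice, against 50.7% of all genes, with a median of 0.62. Of the 9, 3 (Brca2, Brip1 and Rad54l) were higher at an unadjusted p under 0.05 (33.3%, against 4.28% of all genes). In the 8 mice all 9 were again positive, against 53.5% of all genes, with a median of 0.17. The same 3 genes were higher at this p, against 6.01% of all genes. Brca2, needed for strand exchange, had 9.08, 9.05, 9.58, 9.05 and 9.29 log2 units in nicotine mice 1 to 5, against 9.00, 8.76, 8.91, 8.86 and 8.95 in water mice 1 to 5. The groups did not overlap, the closest values being 9.05 in nicotine mice and 9.00 in a water mouse, and here nicotine mouse 1 lay between nicotine mice 2 and 5. The difference was 0.31 ± 0.11 (SE; limma adjusted p = 0.458, unadjusted 0.0170) in all 10 mice and 0.23 ± 0.08 (adjusted p = 0.196, unadjusted 0.0113) in the 8.

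Rad54l, a motor protein that aids invasion of the matching strand, had 9.07, 8.04, 9.55, 8.07 and 8.18 in nicotine mice 1 to 5, against 7.97, 7.72, 7.86, 7.64 and 8.02 in water mice 1 to 5. Nicotine mice 1 and 3 lay more than 1 unit above the water mean, and mice 2, 4 and 5 just above the highest water mouse. Its difference was 0.74 ± 0.29 (adjusted p = 0.458) in all 10 mice and 0.25 ± 0.09 (adjusted p = 0.221) in the 8. Brip1, a helicase that binds BRCA1, had 8.54, 8.13, 9.56, 8.21 and 8.13 in nicotine mice, against 7.92, 7.76, 7.93, 7.81 and 8.15 in water mice. The groups overlapped only through water mouse 5, which lay above nicotine mice 2 and 5. Its difference was 0.60 ± 0.26 (adjusted p = 0.458) and, in the 8 mice, 0.24 ± 0.08 (adjusted p = 0.215).

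Brca1 and its partner Bard1 were highest in nicotine mouse 3 and next in nicotine mouse 1. Brca1 had 8.69, 7.75, 9.83, 7.94 and 7.94 in nicotine mice, against 7.72, 7.58, 7.64, 7.60 and 8.00 in water mice. Bard1 had 8.49, 7.25, 9.90, 7.40 and 7.32 in nicotine mice, against 7.38, 7.22, 7.28, 7.44 and 7.27 in water mice. For both, nicotine mice 1 and 3 were the only animals above all water mice. The groups of Brca1 overlapped only through water mouse 5, which lay above nicotine mice 2, 4 and 5, whereas those of Bard1 overlapped through several water mice. The difference of Brca1 was 0.72 ± 0.36 (adjusted p = 0.458) in all 10 mice and 0.17 ± 0.10 (adjusted p = 0.449) in the 8. That of Bard1 was 0.75 ± 0.47 (adjusted p = 0.461) in all 10 and 0.00 ± 0.06 in the 8, and the other 2 probe sets of Bard1 gave 0.56 and 0.57, then 0.13 and 0.04. Rad51ap1, which aids strand pairing, had 7.93 and 9.25 in nicotine mice 1 and 3 and 6.87 to 7.15 in the other nicotine mice, against 6.71 to 7.09 in water mice. Rad54b, a relative of Rad54l, had 8.32 and 9.38 in nicotine mice 1 and 3 and 7.60 to 7.85 in the other nicotine mice, against 7.36 to 7.64 in water mice. Palb2, the bridge between BRCA1 and BRCA2, and Xrcc3, another recombination gene, had differences of 0.11 ± 0.09 and 0.12 ± 0.07 in all 10 mice and 0.01 ± 0.07 and 0.08 ± 0.06 in the 8. Those of Rad51ap1 and Rad54b were 0.80 ± 0.40 and 0.62 ± 0.30 in all 10 mice (adjusted p = 0.458 each) and 0.19 ± 0.11 and 0.16 ± 0.08 in the 8.

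**Figure D4:**
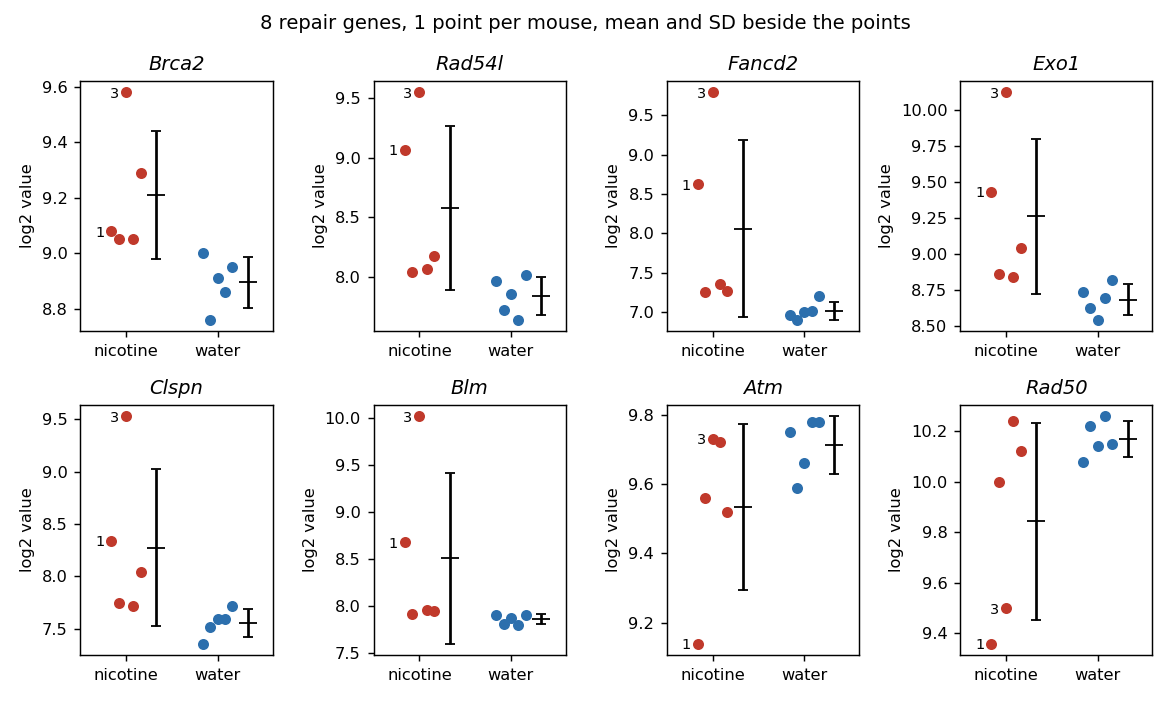
Log2 value of 8 repair genes in each of 5 nicotine mice (red, left) and 5 water mice (blue, right), with the mean and SD beside the points; nicotine mice 1 and 3 are numbered. In Brca2, Rad54l, Fancd2, Exo1, Clspn and Blm every red point lies above every blue one, whereas in Atm and Rad50 nicotine mouse 1 is the lowest of the 10.

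Of the 10 Fanconi anaemia genes, 9 had a positive difference in all 10 mice and 6 in the 8 mice, with medians of 0.23 and 0.05. Over all genes, 50.7% and 53.5% were positive. The genes of the FANCD2 and FANCI pair, the target of the core complex, had larger differences in all 10 mice than any core gene. Fancd2 had 8.62, 7.26, 9.79, 7.35 and 7.27 in nicotine mice 1 to 5, against 6.96, 6.90, 7.0, 7.01 and 7.20 in water mice 1 to 5. Nicotine mice 2, 4 and 5 lay within 0.1 of each other and above the highest water mouse, and nicotine mouse 3 stood 2.77 above the water mean. Its difference of 1.04 ± 0.46 (adjusted p = 0.458), or 2.06-fold, was the highest of the 35 members in all 10 mice. In the 8 mice it was 0.28 ± 0.07 (adjusted p = 0.131, unadjusted 0.00245).

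Fanci had 8.90, 7.61, 9.51, 7.70 and 7.85 in nicotine mice, against 7.36, 7.38, 7.39, 7.56 and 7.66 in water mice. Only nicotine mouse 2 overlapped with the water mice, below water mouse 5. The difference was 0.84 ± 0.35 (adjusted p = 0.458), and 0.25 ± 0.09 (adjusted p = 0.216) in the 8 mice. Fanca, a subunit of the core complex, had 9.23, 8.83, 9.69, 8.82 and 9.03 in nicotine mice, against 8.60, 8.51, 8.56, 8.80 and 8.92 in water mice. Its groups overlapped through water mouse 5, and its difference was 0.44 ± 0.17 (adjusted p = 0.458), then 0.21 ± 0.10 (adjusted p = 0.352).

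Some core genes were far higher in nicotine mouse 3 than in any other animal. Fancb, another core subunit, had 10.12 in nicotine mouse 3, which is 2.72 above the water mean, and 7.52, 7.09, 7.45 and 7.18 in nicotine mice 1, 2, 4 and 5, against 7.36 to 7.44 in water mice. Its difference was 0.47 ± 0.52 (adjusted p = 0.595) in all 10 mice and -0.16 ± 0.08 (adjusted p = 0.375) in the 8, so the sign turned with that mouse. Fancm, the translocase that brings the core complex to DNA, had 9.11 in nicotine mouse 3 and 7.88 to 8.22 in the other 4, against 8.05 to 8.24 in water mice, and its difference was 0.06 ± 0.22 in all 10 mice and -0.15 ± 0.09 in the 8. Fancg had 9.33 in nicotine mouse 3 and 8.33 to 8.58 in the other 4, against 8.13 to 8.40 in water mice, and its difference was 0.30 ± 0.18 in all 10 mice and 0.05 ± 0.07 in the 8. Fance had 8.74, 8.84, 8.54, 8.75 and 8.99 in nicotine mice 1 to 5, against 8.80, 8.78, 8.76, 8.71 and 8.70 in water mice 1 to 5, so that nicotine mouse 3 was the lowest of the 10. Fancc, Fancf, Fance and Fancl, also core subunits, had differences of 0.11, 0.17, 0.02 and -0.03 in all 10 mice and of -0.03, 0.05, 0.11 and -0.03 in the 8.

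The 5 helicase, nuclease and scaffold genes all had positive differences in all 10 mice, with a median of 0.58. In the 8 mice 4 of 5 did, with a median of 0.14. Over all genes, 50.7% and 53.5% were positive. Exo1, the exonuclease that resects broken ends, had 9.43, 8.86, 10.12, 8.84 and 9.04 in nicotine mice 1 to 5, against 8.73, 8.62, 8.54, 8.69 and 8.82 in water mice 1 to 5. The groups did not overlap, though nicotine mouse 4 and water mouse 5 were 0.02 apart. Its difference was 0.58 ± 0.23 (adjusted p = 0.458), and 0.23 ± 0.08 (adjusted p = 0.196) in the 8 mice. Blm, the helicase that dissolves recombination intermediates, had 8.68, 7.92, 10.02, 7.96 and 7.95 in nicotine mice, against 7.91, 7.81, 7.87, 7.80 and 7.91 in water mice. Nicotine mice 2, 4 and 5 exceeded the highest water mouse by at most 0.05, and the difference of 0.65 ± 0.37 (adjusted p = 0.458, unadjusted 0.111) became 0.08 ± 0.05 in the 8 mice.

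Eme1 and Mus81 encode the subunits of a nuclease that cuts joined DNA molecules. Eme1 had 7.85, 7.01, 8.86, 6.90 and 7.04 in nicotine mice, against 6.48, 6.91, 6.70, 6.75 and 6.86 in water mice, with a difference of 0.79 ± 0.35 (adjusted p = 0.458) and, in the 8 mice, of 0.24 ± 0.09 (adjusted p = 0.254). Mus81 had 8.11, 8.02, 8.33, 8.08 and 7.96 in nicotine mice, against 7.75, 8.08, 7.85, 7.89 and 7.82 in water mice, with differences of 0.22 ± 0.09 (adjusted p = 0.458) and 0.14 ± 0.07 (adjusted p = 0.424). Eme1 overlapped only through nicotine mouse 4 and water mouse 2, and Mus81 through water mouse 2. Slx4, the scaffold of several nucleases, differed by 0.20 ± 0.14 in all 10 mice and -0.02 ± 0.06 in the 8. The mismatch repair genes Msh6 and Pms2 differed by 0.02 ± 0.07 and 0.16 ± 0.18 in all 10 mice, and by -0.03 and -0.09 in the 8, and Pms2 reached 9.75 in nicotine mouse 3.

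Damage sensing and checkpoint genes differed in both directions. Of 9 members, 4 (44.4%, against 50.7% of all genes) had a positive and 5 a negative difference in all 10 mice, with a median of -0.03. In the 8 mice 6 (66.7%, against 53.5% of all genes) were positive and 3 negative, with a median of 0.02. Clspn, the adaptor through which ATR activates CHK1, was the single one with an unadjusted p under 0.05. It had 8.34, 7.75, 9.53, 7.72 and 8.04 in nicotine mice 1 to 5, against 7.36, 7.52, 7.59, 7.59 and 7.72 in water mice 1 to 5. The groups did not overlap, although nicotine mouse 4 and water mouse 5 shared a value at this rounding. The difference was 0.72 ± 0.31 (adjusted p = 0.458) in all 10 mice and 0.29 ± 0.09 (adjusted p = 0.199, unadjusted 0.0119) in the 8. Topbp1, an activator of ATR, had 10.56 and 10.63 in nicotine mice 1 and 3 and 10.04 to 10.20 in the other 3, against 9.97 to 10.14 in water mice. Parp1, the sensor of DNA nicks, had 9.72 and 9.88 in nicotine mice 1 and 3 and 9.29 to 9.37 in the other 3, against 9.22 to 9.35 in water mice. Their differences of 0.25 ± 0.12 and 0.23 ± 0.12 (adjusted p = 0.458 each) became 0.06 ± 0.06 and 0.03 ± 0.05 in the 8 mice.

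The kinase Atm and the break-binding subunits Rad50 and Nbn had negative differences. Rad50, the tethering subunit of the complex that recognises broken ends, had 9.36, 10, 9.50, 10.24 and 10.12 in nicotine mice, against 10.08, 10.22, 10.14, 10.26 and 10.15 in water mice. Nicotine mice 1 and 3, the highest in most other members, were the lowest here, 0.81 and 0.67 below the water mean. The difference was -0.33 ± 0.17 (adjusted p = 0.458, unadjusted 0.0824) in all 10 mice and -0.05 ± 0.07 in the 8. Nbn, its partner in that complex, had 9.01, 9.35, 8.91, 9.41 and 9.43 in nicotine mice, against 9.38, 9.28, 9.36, 9.44 and 9.50 in water mice, with a difference of -0.17 ± 0.11 in all 10 mice and 0.00 ± 0.06 in the 8. The other probe set of Nbn gave 0.12 and 0.08, so the direction of Nbn is uncertain.

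Atm had 9.14, 9.56, 9.73, 9.72 and 9.52 in nicotine mice, against 9.75, 9.59, 9.66, 9.78 and 9.78 in water mice. Here nicotine mouse 1 alone was far below the rest, and nicotine mouse 3 lay within the water range. The difference was -0.18 ± 0.11 (adjusted p = 0.462), and -0.11 ± 0.07 (adjusted p = 0.475) in the 8 mice. Atr, the kinase of stalled replication forks, had 8.57, 8.57, 9.00, 8.59 and 8.51 in nicotine mice, against 8.61, 8.49, 8.78, 8.69 and 8.82 in water mice, and differed by -0.03 ± 0.11 and -0.12 ± 0.08. The checkpoint kinase Chek1 separated the 2 outlying mice: it had 8.79 in nicotine mouse 1, the lowest of 10, and 10.17 in nicotine mouse 3, the highest, with 9.56 to 9.80 in the other nicotine mice and 9.58 to 9.82 in water mice. Chek2, the kinase downstream of ATM, showed the same order, with 7.50 in nicotine mouse 1, 8.55 in nicotine mouse 3 and 7.64 to 7.94 in the others, against 7.53 to 7.87 in water mice. Their differences were -0.08 ± 0.22 and 0.21 ± 0.18 in all 10 mice and 0.02 ± 0.08 and 0.14 ± 0.10 in the 8.

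Other genes of these pathways, listed apart from the 35 members, had smaller median differences. Over 97 tested genes of 7 lists the median difference was 0.04 in all 10 mice and 0.01 in the 8. In all 10 mice 12 were higher (12.4%, against 4.28% of all genes) and 5 lower (5.15%, against 5.84%) at an unadjusted p under 0.05, and in the 8 mice 16 were higher (16.5%, against 6.01%) and 7 lower (7.22%, against 8.69%). In both, 0 had an adjusted p under 0.05 in limma. The 21 other homologous recombination genes had medians of 0.03 in all 10 mice and 0.04 in the 8, with 2 and then 3 higher and 0 lower. The 16 other Fanconi genes had medians of 0.16 and 0.06, with 3 and then 6 higher and 1 lower in each. The Fanconi members had medians of 0.23 and 0.05. The 19 other checkpoint genes had medians of 0.10 and 0.00, with 4 higher and 0 lower in each. The members of damage sensing and the checkpoint had medians of -0.03 and 0.02. The 3 other mismatch repair genes, with medians of 0.04 and -0.06, had none, and the mismatch-recognition gene Msh3 and the endonuclease subunit gene Mlh3 were at 0.17 and -0.02 in all 10 mice and -0.06 each in the 8. Among the higher ones, every nicotine mouse lay above every water mouse for Fignl1, a regulator of recombination (0.42 ± 0.13, adjusted p = 0.458), for Ube2t, the ubiquitin-conjugating enzyme that modifies FANCD2 (0.53 ± 0.19), for Faap100, a core complex partner (0.23 ± 0.08), for Timeless, a replication fork protein (0.53 ± 0.14), and for H2ax, the histone phosphorylated at breaks (0.70 ± 0.21). In the 8 mice these 5 genes differed by 0.23, 0.21, 0.17, 0.32 and 0.39, with adjusted p-values of 0.132 to 0.200. Rpa2, a subunit of the protein that coats bare strands, differed by 0.42 ± 0.14 in all 10 mice and 0.20 ± 0.08 in the 8, with 4 of the 5 nicotine mice above all water mice.

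Non-homologous end joining, the pathway that rejoins broken ends without a template, was represented by 9 tested genes, with 2 positive and 7 negative differences in all 10 mice and 4 positive and 5 negative in the 8. The medians were -0.03 and -0.07. In each comparison 0 genes were higher and 2 lower (22.2%) at an unadjusted p under 0.05. Over all genes, 4.28% were higher and 5.84% lower in all 10 mice, and 6.01% and 8.69% in the 8. Positive differences were found in 50.7% of all genes in all 10 mice and in 53.5% in the 8. Prkdc, the kinase that holds the ends, differed by -0.38 ± 0.13 (adjusted p = 0.458, unadjusted 0.0138) in all 10 mice and by -0.24 ± 0.06 (unadjusted p = 0.00221) in the 8. Xrcc4, the partner of the ligase, differed by -0.22 ± 0.07 (adjusted p = 0.458, unadjusted 0.0111) in all 10 mice and by -0.20 ± 0.06 (adjusted p = 0.152) in the 8. In both genes every nicotine mouse lay below every water mouse. This order was found in 2.88% of all genes in all 10 mice and in 6.47% in the 8. Base and single-strand break repair (15 genes) had medians of 0.02 and 0.06, with 3 higher and 1 lower in all 10 mice and 3 higher and 2 lower in the 8. Mutyh, a glycosylase, was at 0.28 ± 0.11 and then 0.16 ± 0.06, and Parg, which removes poly(ADP-ribose), at -0.15 ± 0.06 and then -0.13 ± 0.05. Nucleotide excision repair (14 genes) had medians of -0.06 and 0.00, with 0 higher in each, 1 lower in all 10 mice and 2 lower in the 8. Gtf2h1, a subunit of the opening complex, was at -0.23 ± 0.08 and then -0.20 ± 0.06, and Uvssa, which acts at stalled transcription, at -0.22 ± 0.10 and then -0.07 ± 0.05. A test of the difference between lists was not made.

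By median deviation from the water mean, proliferation genes and members were both highest in nicotine mouse 3 and next in nicotine mouse 1. All 21 tested genes of the proliferation list had a positive difference in all 10 mice and again in the 8, with medians of 0.66 and 0.32. In each comparison 17 (81.0%) were higher at an unadjusted p under 0.05. The shares of all genes were 4.28% in all 10 mice and 6.01% in the 8. The median deviation of the proliferation genes was 1.01, 0.30, 1.65, 0.25 and 0.34 in nicotine mice 1 to 5. In water mice 1 to 5 it was -0.04, -0.07, -0.06, 0.05 and 0.14. The members had only 0.03, 0.10 and 0.09 in nicotine mice 2, 4 and 5, against 0.07 in water mouse 5. Mki67, a marker of cycling cells, had 11.47, 10.79, 12.27, 10.59 and 10.60 in nicotine mice, against 10.15, 10.02, 10.06, 10.26 and 10.55 in water mice, and differed by 0.94 ± 0.31 (adjusted p = 0.458). Top2a, a topoisomerase of dividing cells, and Pcna, the replication clamp, differed by 1.15 ± 0.45 and 0.26 ± 0.15. In the 8 mice the differences of Mki67, Top2a and Pcna were 0.45 ± 0.11 (adjusted p = 0.131), 0.39 ± 0.11 and 0.18 ± 0.09. Every nicotine mouse lay above every water mouse in 14 of the 21 proliferation genes (66.7%), in all 10 mice and in the 8. The shares of all genes were 2.02% and 4.12%. Nicotine mice 3 and 1 were also the highest for Chga and for the mean of the neuroendocrine markers given above. The part of cycling cells, neuroendocrine cells and the other marker lists in the differences of the repair genes was not tested.

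**Figure D5:**
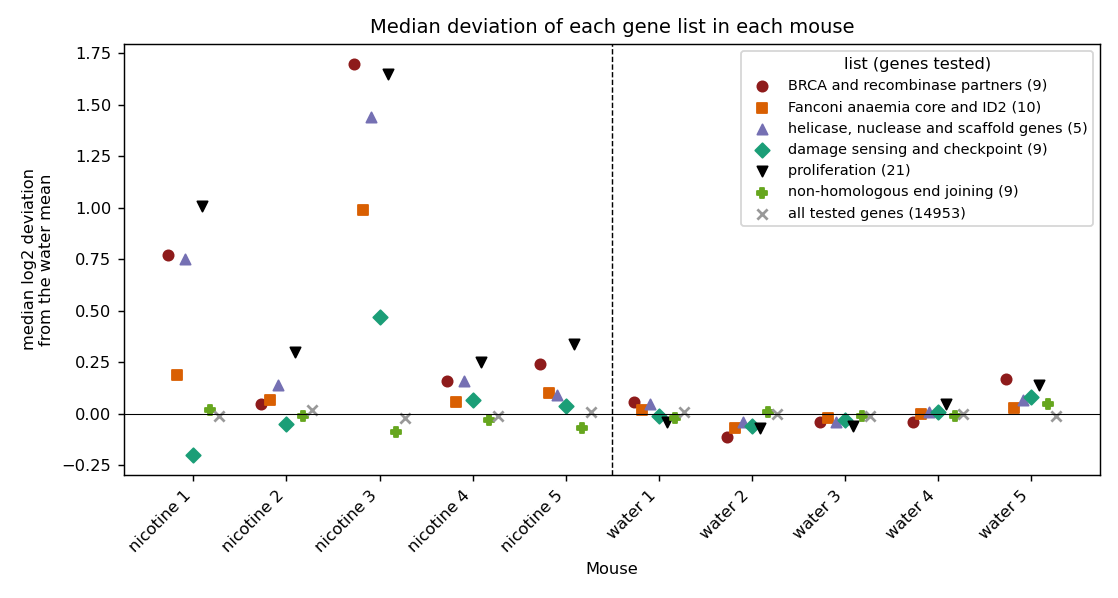
Median log2 deviation from the water mean of 6 gene lists and of all tested genes in each nicotine mouse (left of the dashed line) and each water mouse (right). In nicotine mouse 3 the BRCA and recombinase partners are at 1.70 and the proliferation genes at 1.65, while end joining genes are at -0.09 and all tested genes at -0.02.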

How the data were processed

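RNA of 10 prostates, 5 of nicotine and 5 of water mice, was measured with 1 array per mouse. The authors deposited a table of log2 values for 35556 probe sets; its scale was read from the range of 3.59 to 14.1, and the sources used here do not give its background correction or normalization. Array medians were 7.50 to 7.57. No batch labels or scanner files were used here.

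The platform annotation gave 1 symbol to 21789 probe sets, several to 1621 and none to 12146, and 21698 of the single-symbol probe sets were found in RefSeq by Entrez identifier. Of 19938 genes, the 25% with the lowest mean (below 6.55) were left out and 14953 tested. limma 3.58.1 in R 4.3.3 (lmFit, eBayes) compared nicotine with water, two-sided, with Benjamini-Hochberg adjustment over all tested genes and a threshold of 0.05. The test was repeated on 8 arrays, without those with Chga above 9. The value 9 was chosen with earlier results of these data known. The number of arrays limits the precision. The fit was tested on simulated data.

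Members and lists were chosen with earlier results of these data known. Values by mouse were given by rule for 12 members with the smallest unadjusted p in all 10 mice, 6 more from the 8 mice, and Brca1, Brca2, Rad51ap1, Rad54l, Rad54b, Atm, Atr and Parp1, and those of Bard1, Blm, Rad50, Nbn, Chek1, Chek2, Fancg, Pms2 and Pbsn were added after their values were seen. The rule named at most 2 genes of each other list, and Mki67, Top2a, Pcna and Chga. Xrcc2 was not analysed here. Same-numbered mice did not vary together: the correlation of their deviations from the group means was -0.129 to 0.164 over 5 pairs. Promoter letters were read from RefSeq windows of GRCm38.p6. Alternatives were array weights, quantile scaling, median centring, other filters, a trended and robust fit, a replicate block and leaving out each mouse.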

Additional observations from a re-analysis of the deposited data

Results flagged for a closer look

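Dixon's test was applied to 70 groups of 5 values (35 members in nicotine mice and in water mice), of which chance flags about 3.5. It flagged 5, each with nicotine mouse 3 as the highest of the 5 nicotine mice. The test was not applied to other genes, and nicotine mouse 3 was the highest of the 10 mice in 30.2% of all tested genes. Fancb was at 10.12 log2 units in that mouse and at 7.09 to 7.52 in the other 4. Brip1 was at 9.56, against 8.13 to 8.54 in the other 4. For Fancg the value was 9.33, against 8.33 to 8.58. Fancm stood at 9.11, against 7.88 to 8.22. Atr was at 9.00, against 8.51 to 8.59.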

How the results depend on the processing

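Over 18 alternatives in all 10 mice and 16 in the 8 mice, the median difference of the members stayed positive; with array weights it was 0.10 in each, against 0.23 and 0.06. Array weights gave 1096 genes at an adjusted p under 0.05 in all 10 mice, 4 of them members. At an unadjusted p under 0.05 they gave 17 members (14 higher, 3 lower) and 3741 of all genes. In the 8 mice they gave 1143 genes, 7 of them members, at an adjusted p under 0.05. At an unadjusted p under 0.05 they gave 19 members (15 higher, 4 lower) and 3921 of all genes. In the 8 mice, leaving out the lowest 50% of genes gave 18 genes at an adjusted p under 0.05. At an unadjusted p under 0.05 it gave 5 members and 1879 of 9969 genes. Quantile scaling gave 17 genes at an adjusted p under 0.05, and a trended and robust fit gave 27. Leaving out 1 mouse gave 1 to 14 members at an unadjusted p under 0.05 in all 10 mice, with 784 to 2490 of all genes. In the 8 mice it gave 0 to 90 genes and 0 to 1 members at an adjusted p under 0.05. The counts above 0 were 90 genes and Fancd2 without water mouse 5, and 20 genes without nicotine mouse 4. At an unadjusted p under 0.05 it gave 2 to 11 members, with 1482 to 2505 of all genes. With the replicate number as a block, 0 genes passed. At an unadjusted p under 0.05 there were 5 members and 1005 of all genes in all 10 mice. In the 8 mice there were 7 members and 1549 of all genes. The numbers did not pair the mice, and 1 of 10 mice correlated best with its own number. Small differences turned sign. After centring, Atr and Mlh3 were 0.01 and 0.02. With array weights Fancb, Fancm and Msh3 were -0.17, -0.19 and -0.01, and with the block in the 8 mice Msh3 was 0.00. Leaving out 1 mouse in all 10, Fancb ran from -0.09 (without nicotine mouse 3) to 0.67, Fancm from -0.17 (without nicotine mouse 3) to 0.14, Fance from -0.03 (without nicotine mouse 5) to 0.08, Atr from -0.12 to 0.01 (without water mouse 5) and Mlh3 from -0.06 to 0.01 (without nicotine mouse 2). The cause was not tested.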
